A study of Mus musculus with 4 samples.

Results

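The phagocyte NADPH oxidase (Nox2) is the enzyme complex with which neutrophils, monocytes and MDSCs make superoxide. Its members here were 7 genes, chosen by symbol: Cybb, Cyba, Ncf1, Ncf4, Rac1, Rac2 and Hvcn1. All 7 were found among the 53465 genes of the count file, and all 7 had enough counts to be among the 14682 genes tested. Cybb and Cyba encode the membrane-bound heterodimer (gp91-phox and p22-phox), Ncf1 and Ncf4 encode cytosolic subunits (p47-phox and p40-phox), and Rac1 and Rac2 encode small GTPases that join the active complex. Hvcn1 encodes a proton channel that works beside the oxidase and is not a subunit of it, and Rac1 also serves many other processes.

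RNA was sequenced from MDSCs, the suppressive immature myeloid cells of tumor-bearing hosts, which were sorted with antibody against Gr-1 (Ly-6G/Ly-6C) from the spleens of BALB/c mice carrying 4T1 mammary tumors. The mice were male and, by the study's methods, 6 weeks old when the tumor cells were injected, and the labels place the sacrifice on day 21 of tumor growth, while an earlier day is named for the sort in the methods. The control group (2 libraries) was kept in control medium for 6 h, and the EGCG treatment group (2 libraries) received EGCG, a green tea catechin, at 5 μg/mL for 6 h. All 4 libraries thus came from tumor-bearing hosts, and the sources used here do not say if replicate libraries stem from different mice or only from different wells, so p-values measure only the spread between these samples. Whether an NADPH oxidase response to EGCG is seen in the transcripts is the question addressed, since reactive oxygen species are among the means by which MDSCs suppress T cells.

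In resting phagocytes the heterodimer of Cybb and Cyba lies in the membrane, and each partner is needed for the other to be stable. On activation the p47-phox subunit is phosphorylated and moves with the other cytosolic subunits to the membrane, where Rac bound to GTP completes the complex and electrons pass from NADPH to oxygen. The charge that leaves with the electrons is balanced by protons that pass through the channel of Hvcn1. Much of this control acts on proteins already made, so transcript levels describe the supply of subunits and not the activity of the enzyme.

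Each library held between 17767318 and 18390385 counts, of which the 7 genes together took 0.652% in control replicate 1, 0.646% in control replicate 2, 0.671% in EGCG replicate 1 and 0.677% in EGCG replicate 2. Control replicate 2 differed from the EGCG libraries by about as much as from its own replicate, with a chi-square of counts per gene of 6.85 between the control libraries, 6.65 between the EGCG libraries, and 7.57 and 6.70 between control replicate 2 and EGCG replicates 1 and 2. Control replicate 1 stood farther from EGCG replicates 1 and 2 (16.0 and 12.4). The neutrophil markers were the most abundant of the cell type marker lists, with a summed level of 55345 and 66124 CPM in the control libraries and 74991 and 65303 CPM in the EGCG libraries, where CPM are counts scaled to library size with TMM factors. No listed marker of any cell type was at 0 in all 4 libraries, and T cell, NK cell, platelet, dendritic cell, endothelial and epithelial lists each summed to no more than 104 CPM in any library, and the erythroid list to no more than 206 CPM.

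None of the 7 oxidase genes changed with EGCG at an adjusted p under 0.05 (quasi-likelihood test of edgeR, Benjamini-Hochberg adjustment across the 14682 genes), against 0.15% of all tested genes, of which 0.0136% were higher and 0.136% lower. At an unadjusted p under 0.05 the count was 1 of 7, which was Cyba with a higher value, against 12.2% of the tested genes (5.22% higher and 7.02% lower). DESeq2, run as an alternative, also called 0 of the 7 and had 1 at an unadjusted p under 0.05. Over all genes DESeq2 called 14 higher and 50 lower, and its share at an unadjusted p is not given here. The log2 fold change was above 0 for 5 members and below 0 for 2, with a median of 0.11 beside 0.00315 for all tested genes, of which 50.6% were above 0. The EGCG libraries lay wholly above the control libraries for 4 members and wholly below for 1, against 21.5% and 21.2% of tested genes. The 95% intervals of the members together reached from 79.7% to 129% of the control level. In bulk samples such as these, fewer cells of a type and less RNA per cell cannot be told apart.

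**Figure D1:**
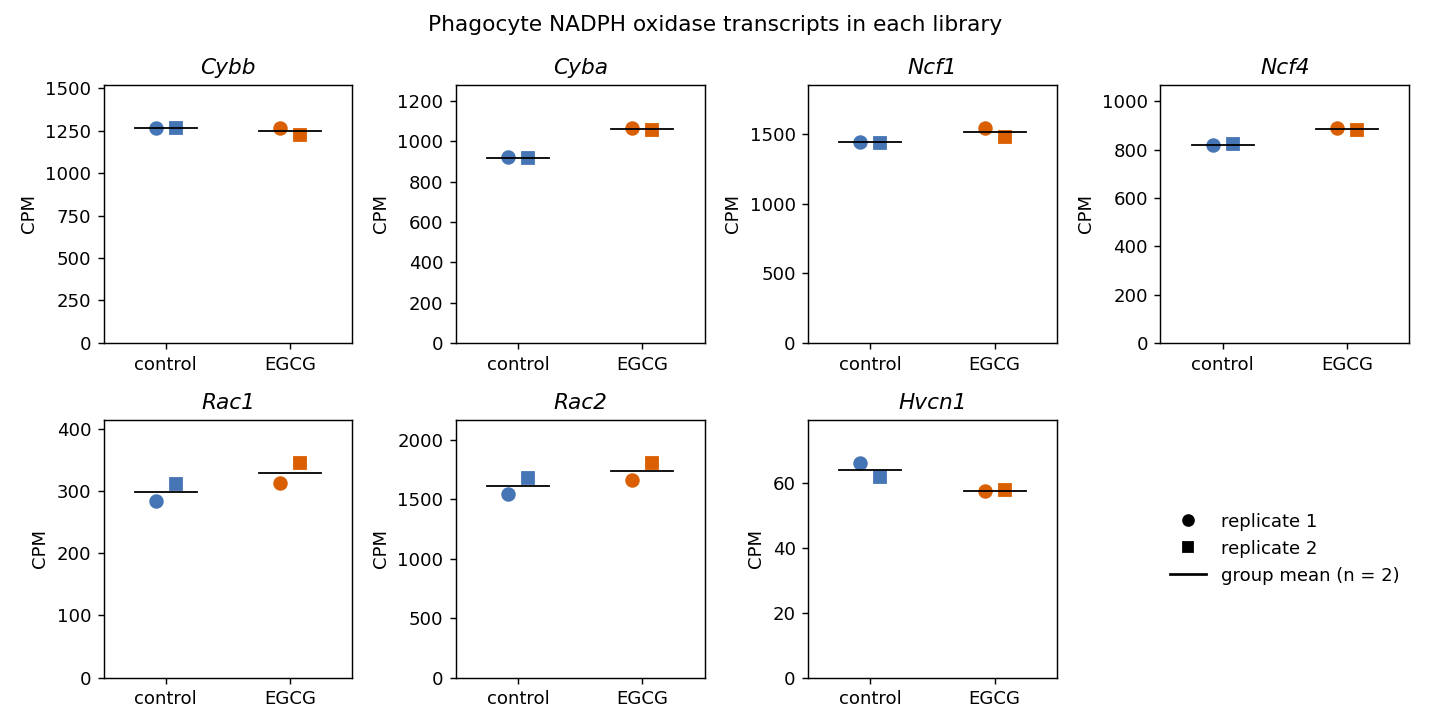
Expression (CPM, linear axis from 0) of the 7 oxidase genes in each library, with circles for replicate 1, squares for replicate 2 and a line at the mean of each group (n = 2). The Cyba libraries separate by group (921 and 919 CPM against 1067 and 1059 CPM), whereas those of Cybb overlap.

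Cybb (ENSMUSG00000015340) encodes gp91-phox, the flavocytochrome chain that carries electrons across the membrane, and lies on the minus strand of chromosome X of GRCm38 from 9435252 to 9487771. It was at 1267 and 1266 CPM in the control libraries and at 1266 and 1227 CPM in the EGCG libraries. EGCG replicate 1 thus lay at the control level and EGCG replicate 2 slightly below it, and the groups overlapped. Cybb had a log2 fold change of -0.02 (standard error 0.08, 95% interval -0.19 to 0.14, adjusted p = 0.938 by edgeR). On the linear scale this was 98.4% of control, with an interval from 87.9% to 110.3%. The mean was 1267 ± 0.480 CPM (SD, n = 2) in the control group and 1247 ± 28.0 CPM (SD, n = 2) in the EGCG treatment group. Its direction is not settled, since the log2 fold change was 0.03 with a correction for gene length and 0.0011 without EGCG replicate 2. With that correction, tested genes grouped by exonic length also had medians above 0, between 0.02 and 0.05.

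Cyba (ENSMUSG00000006519) encodes p22-phox, the smaller partner of gp91-phox and the docking site of p47-phox, and lies on the minus strand of chromosome 8 from 122424776 to 122432930. Its levels were 921 and 919 CPM in the control libraries and 1067 and 1059 CPM in the EGCG libraries. The EGCG libraries both lay above the control libraries, and the gap between the groups was wider than the gap within either. Cyba had the largest log2 fold change of the 7 genes, 0.21 (standard error 0.08, 95% interval 0.05 to 0.37), with an unadjusted p of 0.0148 and an adjusted p of 0.289 by edgeR. This corresponds to 116% of the control level (103% to 129%), in an interval that is not adjusted for the number of genes. Leaving out any library kept the value between 0.21 and 0.22, and the length correction brought it to 0.17. The group means were 919.8 ± 1.58 CPM and 1063 ± 5.72 CPM (SD, n = 2 each), and the test uses a spread estimated with the help of all tested genes, which is wider than that of these 4 libraries alone.

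Because gp91-phox and p22-phox form pairs in the protein, their transcripts were also compared within each library per kilobase of exon. The ratio of Cyba to Cybb was 4.06 in both control libraries, 4.71 in EGCG replicate 1 and 4.82 in EGCG replicate 2. Both EGCG ratios were above both control ratios, but no exact permutation test of 2 libraries against 2 can give a two-sided p below 0.333, so this ratio is a description. It sets the shortest member against the longest, and over all tested genes the fold change fell with exonic length, as described below. With the length correction, the log2 fold changes were 0.17 for Cyba and 0.03 for Cybb, against 0.21 and -0.02 without it. The Cyba transcript exceeded the Cybb transcript in every library and under each length definition tried, with ratios from 4.06 to 5.51.

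Ncf1 (ENSMUSG00000015950) encodes p47-phox, the organizer that is phosphorylated on activation, and lies on the minus strand of chromosome 5 from 134220053 to 134229625. It was at 1444 and 1437 CPM in the control libraries and at 1545 and 1483 CPM in the EGCG libraries. The groups did not overlap, although EGCG replicate 2 lay closer to the control libraries than to EGCG replicate 1. This gave Ncf1 a log2 fold change of 0.07 (standard error 0.08, 95% interval -0.09 to 0.24, adjusted p = 0.764 by edgeR), or 105% of control with an interval from 93.7% to 118%. The value ran from 0.04 without EGCG replicate 1 to 0.10 without EGCG replicate 2. Its exons overlap those of Gtf2ird2 on the other strand over 408 bases, and the counting ignored strand, so reads from that stretch cannot be assigned to either gene.

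Ncf4 (ENSMUSG00000071715) encodes p40-phox, which binds a lipid of the phagosome membrane, and lies on the plus strand of chromosome 15 from 78244801 to 78262580. The control libraries had 818 and 823 CPM and the EGCG libraries 889.8 and 879 CPM. The replicates of each group lay close together and the EGCG libraries were above the control libraries. Ncf4 had a log2 fold change of 0.11 (standard error 0.07, 95% interval -0.05 to 0.27, adjusted p = 0.603 by edgeR), and it stayed between 0.10 and 0.12 whichever library was left out. No other annotated gene shares exonic bases or 31-base words with Ncf4.

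Rac2 (ENSMUSG00000033220), the GTPase of blood cells, lies on the same chromosome as Ncf4, on the minus strand from 78559167 to 78572783, with 296586 bases and 17 annotated genes between them. Its control libraries had 1543 and 1676 CPM and its EGCG libraries 1663 and 1807 CPM. EGCG replicate 1 lay below control replicate 2, so the groups overlapped. For Rac2 the log2 fold change was 0.11 (standard error 0.08, adjusted p = 0.651 by edgeR), with a 95% interval from -0.07 to 0.29. Leaving out a library moved it between 0.05 and 0.17, a wider range than that of Ncf4.

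Rac1 (ENSMUSG00000001847), the broadly expressed GTPase of the family, lies on the minus strand of chromosome 5 from 143503634 to 143528036. Its levels were 284 and 312 CPM in the control libraries and 314 and 346 CPM in the EGCG libraries. The highest control library and the lowest EGCG library differed by less than the replicates of either group did. This was a log2 fold change of 0.15 (standard error 0.08, 95% interval -0.03 to 0.32, adjusted p = 0.503 by edgeR), and it was 0.09 without control replicate 1, 0.08 without EGCG replicate 2 and 0.22 without either of the other libraries. The value with the length correction was 0.18. Of the 31-base words of Rac1, 51.3% also occur in transcripts of other genes, with the largest share in Daglb on the other strand, whose exons cover 2309 bases of the exons of Rac1.

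Within each library the transcripts of both GTPases kept nearly the same proportion. Rac1 made up 15.6% and 15.7% of the summed CPM of Rac1 and Rac2 in control replicates 1 and 2, and 15.9% and 16.1% in EGCG replicates 1 and 2. Per kilobase of exon, Rac2 exceeded Rac1 by 7.86-fold and 7.79-fold in the control libraries and by 7.68-fold and 7.57-fold in the EGCG libraries. When only exonic bases not shared with another gene were used as the length, the ratio was between 3.68 and 3.83, so that its size depends on how the overlap with Daglb is treated, while Rac2 was higher in all 4 libraries in either case.

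Hvcn1 (ENSMUSG00000064267) encodes the voltage-gated proton channel and lies on the plus strand of chromosome 5 from 122206804 to 122242297. It had 66.3 and 61.8 CPM in the control libraries and 57.5 and 57.9 CPM in the EGCG libraries. Both EGCG libraries were below both control libraries, and it was the only member for which that was so. The difference of Hvcn1 on the log2 scale was -0.15 (standard error 0.08, 95% interval -0.33 to 0.03, adjusted p = 0.498 by edgeR), or 90.1% of control with an interval from 79.7% to 102%. Leaving out control replicate 1 gave -0.09, and leaving out control replicate 2 gave -0.20. Its 1574 exonic bases shared with Tctn1 on the other strand make its count uncertain, and with 1035 to 1211 counts in a library it was the least deeply counted member. Counting error alone was at most 3.11% of its count, against 0.557% to 1.39% for the other 6 genes, and these values cover counting error only.

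**Figure D2:**
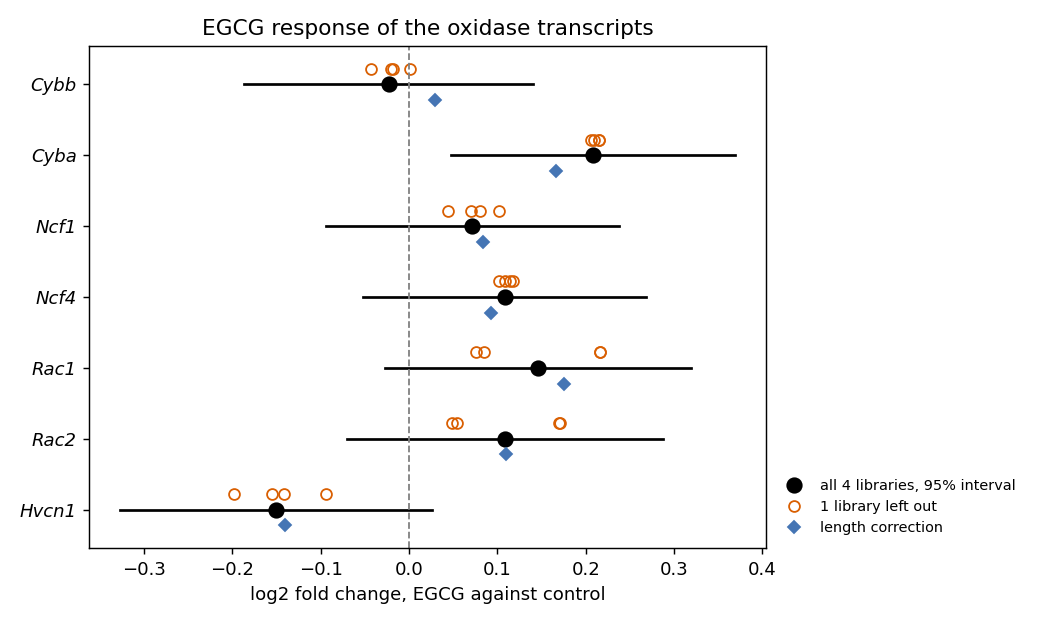
Log2 fold change of EGCG against control for each oxidase gene, with the 95% interval of edgeR's quasi-likelihood test (black), the values with 1 library left out (open circles) and the value with the length correction (diamonds). The interval of Cyba (0.05 to 0.37) is the only one that does not include 0, and no gene passed the adjusted threshold.

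Per kilobase of exon, the members fell into a wide order of levels that was the same in both groups. In the control libraries Cyba was at 886 and 884 CPM per kb, Rac2 at 497 and 540.3, Ncf4 at 405 and 407, Ncf1 at 394 and 392, Cybb at 218 in both, Rac1 at 63.2 and 69.4, and Hvcn1 at 18.6 and 17.3. In the EGCG libraries Cyba was at 1027 and 1019 CPM per kb and Hvcn1 at 16.1 and 16.3, the top and the bottom of the same order. Cyba held rank 33 and Rac2 rank 88 among 14666 tested genes with a known length, Cybb held rank 253, Rac1 rank 806 and Hvcn1 rank 3042. Cybb was thus above 98.3% of these genes, Rac1 above 94.5% and Hvcn1 above 79.3%, on the full exonic length. With exonic bases not shared with another gene, the control means were 136 CPM per kb for Rac1 and 32.2 for Hvcn1 instead of 66.3 and 17.98, and ranks were not computed on that length.

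Neighbors in this order were Rac2, Ncf4 and Ncf1. The libraries of Ncf4 and Ncf1 did not overlap within a group on the main length, with 440.5 and 435 CPM per kb for Ncf4 and 422 and 405 for Ncf1 in the EGCG libraries, but the order of these neighbors was not stable. With exonic bases not shared with another gene, Ncf1 (442 CPM per kb on average in the control group) was above Ncf4 (406). With the longest transcript as the length, Ncf4 (560.6 CPM per kb) was above Rac2 (529.8). The places of Cyba at the top and of Cybb, Rac1 and Hvcn1 at the bottom did not change under any of these lengths.

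**Figure D3:**
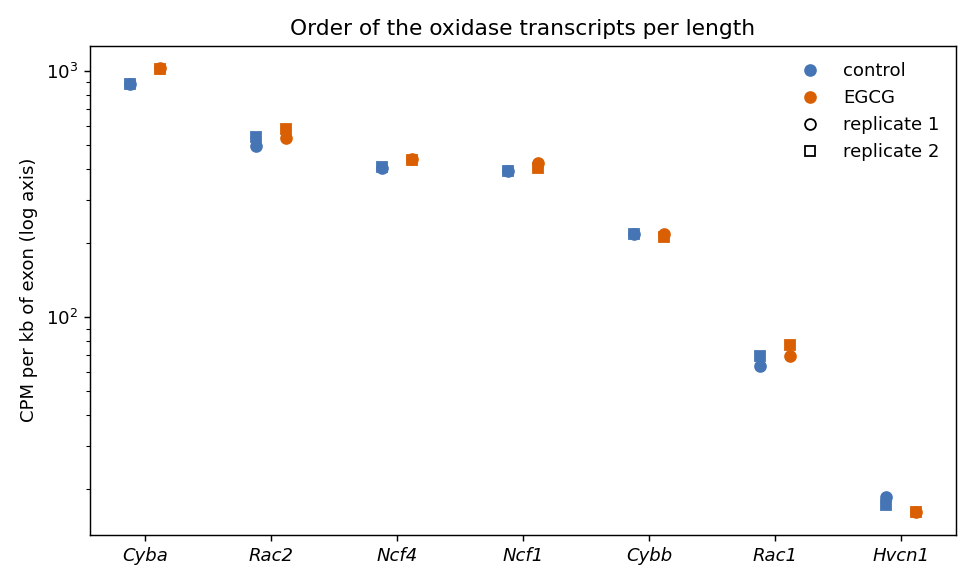
Level of each oxidase gene per kilobase of exon (CPM per kb, log axis) in each library, ordered by the control mean, with control libraries on the left of each gene and EGCG libraries on the right. Cyba lies highest (884 to 1027) and Hvcn1 lowest (16.1 to 18.6) in both groups.

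The members differ in length, and across the tested genes the fold change fell with exonic length (Spearman's rho -0.286 over 14666 genes, given as a description since genes do not vary independently). The median log2 fold change was 0.12 in the 1472 tested genes with the shortest exons (median length 485 bases) and -0.12 in the 1467 with the longest (11703 bases). Cyba, with 1039 exonic bases, is the shortest member and had the largest fold change, and Cybb, with 5808, is the longest and had one near 0. Rac1 (4496 bases) and Hvcn1 (3563 bases) lay off this line, the first above and the second below the middle of genes of their length. With the length correction, the log2 fold changes were 0.17 for Cyba, 0.18 for Rac1, 0.11 for Rac2, 0.09 for Ncf4, 0.08 for Ncf1, 0.03 for Cybb and -0.14 for Hvcn1. The correction did not center the tested genes on 0, since their median was between 0.02 and 0.05 in each length bin. The range between Cyba and Cybb narrowed, and Rac1 took the place of Cyba as the highest member. All adjusted p values with the correction were between 0.473 and 0.928 (edgeR).

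**Figure D4:**
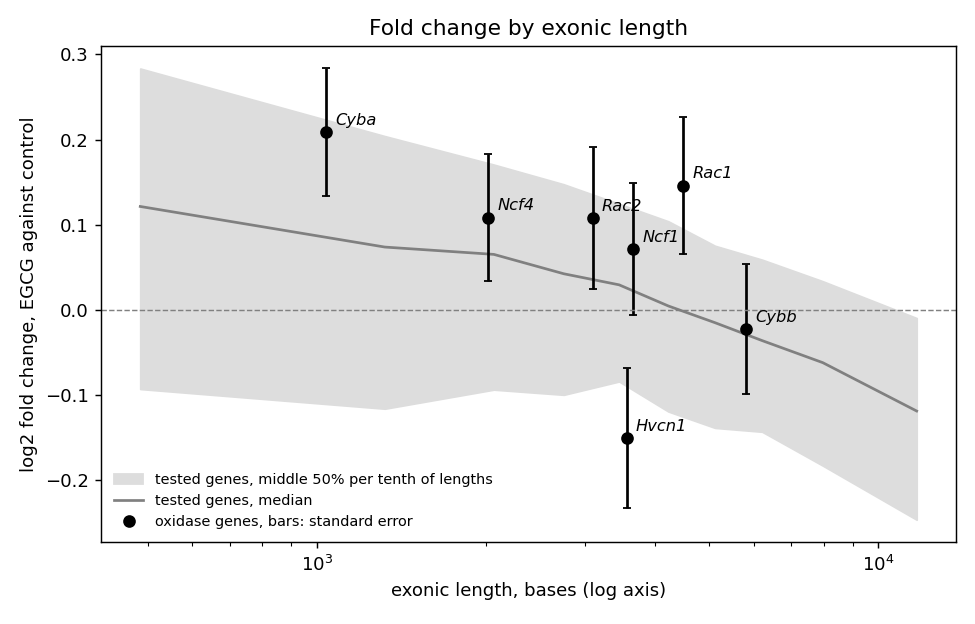
Log2 fold change of EGCG against control by exonic length (log axis), with the median (grey line) and the middle 50% (grey area) of tested genes in each of 10 length bins, and the 7 oxidase genes with standard errors (black). The grey line falls from 0.12 to -0.12. Rac1 and Hvcn1 lie outside the grey area, and Cyba lies close to its upper edge.

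Promoter sequence was at hand in RefSeq (GRCm38.p6) for 3 of the 7 members, Cybb, Cyba and Ncf1, which encode the membrane heterodimer and its organizer. The 250 bases before the start site are printed from 5′ to 3′ on the strand of the gene, since the phagocyte oxidase genes are known targets of PU.1, interferon regulatory factors and STAT proteins. Capitals mark matches, on either strand, to a PU.1 core (GAGGAA), a STAT motif (TTCNNNGAA), a core of the interferon-stimulated response element (GAAA and GAAA with any 2 bases between them) or an antioxidant response element core (TGACNNNGC). These are sequences of the reference strain and not of the BALB/c mice. The windows are chrX:9469325-9469574, chr8:122432941-122433190 and chr5:134229626-134229875, all on the minus strand. The Cybb window lies within the span of the gene given above, since it precedes the start of the main transcripts and 1 annotated transcript begins farther upstream.
Cybb: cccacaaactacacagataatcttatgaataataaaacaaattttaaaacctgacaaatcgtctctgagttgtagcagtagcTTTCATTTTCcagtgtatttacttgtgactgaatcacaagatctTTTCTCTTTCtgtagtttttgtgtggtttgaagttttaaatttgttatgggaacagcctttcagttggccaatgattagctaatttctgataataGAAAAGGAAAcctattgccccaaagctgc
Cyba: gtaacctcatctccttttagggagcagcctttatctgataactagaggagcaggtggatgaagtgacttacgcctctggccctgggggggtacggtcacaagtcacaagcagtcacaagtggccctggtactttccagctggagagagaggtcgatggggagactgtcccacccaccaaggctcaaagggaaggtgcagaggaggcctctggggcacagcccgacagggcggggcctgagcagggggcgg
Ncf1: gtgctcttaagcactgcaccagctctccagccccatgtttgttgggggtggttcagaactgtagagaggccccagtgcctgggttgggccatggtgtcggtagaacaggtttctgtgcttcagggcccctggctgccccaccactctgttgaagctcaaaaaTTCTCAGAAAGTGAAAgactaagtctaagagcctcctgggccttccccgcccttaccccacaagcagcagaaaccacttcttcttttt

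The interferon-type core occurred 3 times in the Cybb window, with the nearest match beginning 29 bases before the start site, and once in the Ncf1 window, against 2.98% of 32851 promoter windows of the same length with at least 1 match. The Ncf1 window also held a STAT motif that begins 88 bases before the start site and overlaps the interferon-type core, whereas 7.02% of all windows held one. The Cyba window held none of the 4 motifs. The searched PU.1 string (GAGGAA) and the antioxidant core were in none of the 3 windows and in 23.3% and 10.2% of all windows. Other forms of a PU.1 site were not searched, so the windows are not shown to lack one. A match is a description of letters, and these windows carry no measurement of binding.

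Of the 10 genes listed as other oxidases and partners, Cybc1 and Noxo1 had enough counts to be tested. By edgeR, 0 of the 2 were called or had an unadjusted p under 0.05, against 0.15% and 12.2% of all tested genes. DESeq2 called neither, though it gave Noxo1 no adjusted p. Cybc1, a chaperone of the heterodimer that the file lists as BC017643, was at 84.0 and 77.7 CPM and at 82.5 and 76.2 CPM. Its log2 fold change was -0.03 (standard error 0.08), and its sign turned without control replicate 1 (0.04) or EGCG replicate 2 (0.03). Noxo1, an organizer of other oxidases, had 10 counts in 3 of the libraries and 12 in EGCG replicate 1. Transcripts of the oxidases other than Nox2 were scarce, with no more than 6 counts of Nox1, 2 of Noxa1 and 1 of Nox3 or Duox1 in any library, and Nox4, Duox2, Duoxa1 and Duoxa2 were at 0 counts in all 4 libraries.

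Among 15 regulators of Rac and Rap GTPases, 0 were called by edgeR or by DESeq2, against 0.15% of all tested genes by edgeR. At an unadjusted p under 0.05, edgeR had 2 higher and 2 lower, against 5.22% and 7.02% of all tested genes, and the median log2 fold change was -0.02. Those at the smallest unadjusted p were Tiam1, Arhgap15 and Rap1b. Tiam1, an exchange factor for Rac, had 84.4 and 80.02 CPM in the control libraries and 67.9 and 70.4 CPM in the EGCG libraries, a log2 fold change of -0.25 (standard error 0.08, adjusted p = 0.228 by edgeR), which was -0.13 with the length correction. Dock5, another exchange factor and the fourth of the list in the order of p, had a log2 fold change of -0.19 (adjusted p = 0.321 by edgeR), which was -0.05 with the length correction. Arhgap15, which returns Rac to its inactive state, had 103 and 119 CPM in the control libraries and 137 and 124 CPM in the EGCG libraries, with a log2 fold change of 0.24 (adjusted p = 0.289 by edgeR) that ran from 0.15 without control replicate 1 (adjusted p = 0.893 by edgeR) to 0.35 without control replicate 2 (adjusted p = 0.0485 by edgeR). Rap1b, a Rap GTPase, had 648 and 717 CPM in the control libraries against 775 and 804 CPM with EGCG (log2 fold change 0.21, adjusted p = 0.320 by edgeR). Tiam1 and Dock5 were thus lower, and Arhgap15 and Rap1b higher, in both EGCG libraries, and none passed the threshold with all 4 libraries. With the length correction, the log2 fold change was 0.34 for Arhgap15 and 0.21 for Rap1b. Of the 15 genes, the EGCG libraries lay wholly above the control libraries for 3 and wholly below for 7, against 21.5% and 21.2% of all tested genes.

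None of 14 kinases and lipid enzymes that act on the complex was called or reached an unadjusted p under 0.05 by edgeR or by DESeq2. Of all tested genes, edgeR called 0.15% and had 12.2% at an unadjusted p under 0.05. The median log2 fold change of the list was -0.07. The smallest unadjusted p in this list belonged to Prkcd, Prkcb and Prkca, isoforms of protein kinase C that phosphorylate p47-phox. Prkcd had 1290 and 1238 CPM in the control libraries and 1180 and 1137 CPM in the EGCG libraries (log2 fold change -0.13, adjusted p = 0.555 by edgeR). Prkcb had a log2 fold change of -0.11 (adjusted p = 0.597 by edgeR) and Prkca one of -0.19 (adjusted p = 0.688 by edgeR) at no more than 10.4 CPM. With the length correction these values were -0.08 for Prkcd, -0.02 for Prkcb and -0.09 for Prkca, and that of Prkca was 0.0044 without control replicate 1.

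The list of 10 enzymes that remove superoxide and peroxides, or use them as myeloperoxidase does, had 0 called genes by edgeR or by DESeq2. By edgeR, 0.15% of all tested genes were called. Its median log2 fold change was 0.10, and 2 of its genes had higher values with an unadjusted p under 0.05 by edgeR, against 5.22% of all tested genes. Gpx4, a peroxidase that protects membrane lipids, had 42.7 and 47.0 CPM in the control libraries and 55.1 and 55.0 CPM in the EGCG libraries, a log2 difference of 0.30 (standard error 0.09, adjusted p = 0.212 by edgeR). Prdx5 had a log2 fold change of 0.19 (adjusted p = 0.407 by edgeR) and Sod1 one of 0.15 (adjusted p = 0.471 by edgeR), where Sod1 is the cytosolic superoxide dismutase. The value of Prdx5 ran from 0.10 without control replicate 1 to 0.29 without control replicate 2. EGCG libraries lay above the control libraries for 6 of these 10 genes and below for 2, against 21.5% and 21.2% of all tested genes.

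Among 9 transcription factors known to act on phagocyte oxidase genes, 0 were called by edgeR or by DESeq2, against 0.15% of all tested genes by edgeR. Their median log2 fold change was 0.02. Cebpb had the only unadjusted p under 0.05 by edgeR, against 12.2% of all tested genes (5.22% higher and 7.02% lower). It had 414 and 406 CPM in the control libraries and 439.9 and 515 CPM in the EGCG libraries (log2 fold change 0.22, adjusted p = 0.324 by edgeR). Without EGCG replicate 2 the value of Cebpb was 0.10, and without EGCG replicate 1 it was 0.33. Spi1, which encodes PU.1, had 873 and 882 CPM and 942 and 963 CPM, with a log2 fold change of 0.12 (adjusted p = 0.570 by edgeR). Rela had a log2 fold change of 0.07 (adjusted p = 0.767 by edgeR), which was -0.02 without EGCG replicate 2 and 0.16 without EGCG replicate 1, and Stat3 one of -0.02 (standard error 0.07, adjusted p = 0.955 by edgeR), with 235 and 242 CPM in its control libraries and 235 and 237 CPM in its EGCG libraries. The value of Stat3 was 0.10 with the length correction and 0.0071 without control replicate 2.

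**Figure D5:**
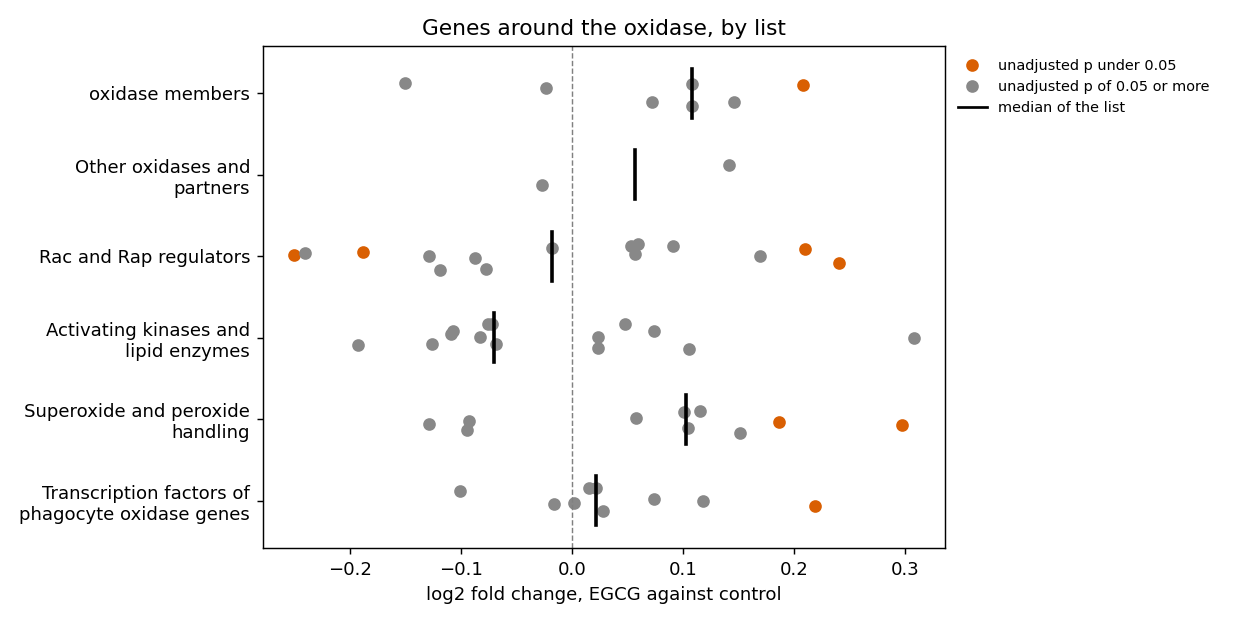
Log2 fold change of EGCG against control for the tested genes of each list and for the oxidase members, in orange at an unadjusted p under 0.05 and in grey otherwise, with the median of each list as a black line. The medians run from -0.07 for the kinases and lipid enzymes to 0.11 for the members, and 0 genes passed the adjusted threshold.

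Monocytes, macrophages, eosinophils and B cells also use oxidase subunits, so the values of their markers are described here. No list was tested as a whole, and the log2 fold change was above 0 for 50.6% of all tested genes. All 7 macrophage markers were lower with EGCG, with a summed level of 378 and 381 CPM in the control libraries and 299 and 318 CPM in the EGCG libraries. All 4 eosinophil markers were lower as well, at 1061 and 915 CPM against 892 and 753 CPM in sum, and 5 of 6 monocyte markers were lower (1016 and 979 CPM against 929.7 and 929.4 CPM in sum). Among B cell markers 5 of 6 were higher, from 1753 and 1848 CPM to 1948 and 2004 CPM in sum, and 7 of 10 neutrophil markers were higher. None of these markers passed an adjusted p of 0.05 by edgeR, against 0.15% of all tested genes. The smallest of these 5 lists was 0.107 in the macrophage list, while DESeq2 called 1, the macrophage gene Cd5l. Over all genes DESeq2 called 14 higher and 50 lower. At an unadjusted p under 0.05 by edgeR, 3 macrophage, 2 eosinophil and 1 monocyte markers were lower, and 1 B cell and 1 neutrophil marker were higher, against 7.02% of all tested genes lower and 5.22% higher. The 3 endothelial markers were all lower at an unadjusted p under 0.05 by edgeR, with a median log2 fold change of -0.87, a smallest adjusted p of 0.103 (Cdh5) and a summed level of 13.9 and 14.8 CPM in the control libraries against 6.62 and 9.57 CPM with EGCG. Of the epithelial markers, which summed to no more than 6.61 CPM in any library, Epcam had a log2 fold change of 0.63 (adjusted p = 0.235 by edgeR). The part of any of these lists in the values of the oxidase genes was not tested.

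The genes whose pattern over the 4 libraries was nearest to that of Cybb were Cnr2, a cannabinoid receptor of immune cells, Rnf215 and Papd4, with a root mean square difference in centered log2 CPM of 0.00072, 0.0046 and 0.0063. For Ncf1 they were Mapk13, a kinase of the p38 family, Nfs1, which serves the making of iron-sulfur clusters, and Srp68, a protein of the signal recognition particle, at 0.0035, 0.0043 and 0.0056. Such patterns were common: 9.94% of 13619 genes lay within 0.05 of Cybb and 9.03% within 0.05 of Ncf1, so that nearness over 4 libraries singles out no gene.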

How the data were processed

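The authors demultiplexed the reads with bcl2fastq 1.8.4, mapped them with STAR 2.6.0c (GRCm38) and assigned them to genes of Ensembl release 91 with featureCounts 1.6.2 in its non-stranded mode (versions per the submitters' processing notes). The deposited values are raw counts. The file had 0 columns of other samples and 0 lines that named no gene. Libraries were grouped by their titles. Genes were filtered with edgeR 4.0.16 (filterByExpr, minimum count of 10), scaled by TMM and compared by the legacy quasi-likelihood test, with no block. Benjamini-Hochberg adjustment covered 14682 genes, with a threshold of 0.05. The standard error is the size of the log2 fold change over the square root of F, and the 95% interval uses the degrees of freedom of the test. Fits and the length correction (loess with a span of 0.4 in each library) were tested on simulated data. GENCODE M21 (GRCm38) gave lengths, positions and shared words for 53360 of 53465 identifiers.

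The members, gene lists and tests were chosen with earlier results of these data known. Named genes are all members, the called genes of each list or otherwise up to 3 with the smallest unadjusted p, and the 3 genes nearest to Cybb and to Ncf1 (prior count of 2, at least 10 counts in every library). Dock5, Stat3, Cd5l, Cdh5, Epcam and the other oxidases were named in addition, after their values were seen. The result of 1 gene of the lists is not reported here. The alternatives were other filters, scalings and fits, DESeq2 1.42.0, the length correction, a replicate block, other lengths and leaving out each library. The software was Python 3.11.15 with pandas 2.3.3, NumPy 2.4.6 and matplotlib 3.10.9, and R 4.3.3. Reads, protein and qRT-PCR data were not used here.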

Additional observations from a re-analysis of the deposited data

How the results depend on the processing

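Under 14 alternatives, 4 of which leave out a library, 0 of 98 member values passed the adjusted threshold and 2 turned direction, both of Cybb (0.029 with the length correction, and from -0.043 to 0.0011 with a library left out, the latter without EGCG replicate 2). The median log2 fold change of the members came to 0.073 when only library size was used, and lay between 0.076 (without EGCG replicate 2) and 0.11 with a library left out. Over the scalings, the median of all tested genes also moved, from -0.032 to 0.011, beside 0.0031 in the main fit. With the replicate block the log2 fold changes of the members hardly moved (median 0.11), and same-numbered libraries did not deviate together (correlation of 0.0336 across genes), so the numbers are not taken as pairs.
Over all genes, 2 were called higher and 20 lower. The counts of higher and lower genes were 0 and 0 without a filter (27490 genes in the fit, of which 777 higher and 1018 lower at an unadjusted p under 0.05 by edgeR), 1 and 20 with the stricter filter, 16 and 135 with library size only, 2 and 9 with upper-quartile scaling, 6 and 25 with the newer form of the fit, 14 and 49 with robust estimation, 14 and 50 with DESeq2, 2 and 3 with the length correction and 6 and 24 with the replicate block. They were 5 and 72 without control replicate 1, 119 and 235 without control replicate 2, 28 and 90 without EGCG replicate 1, and 53 and 199 without EGCG replicate 2. The cause was not tested.
Among other named genes, the sign turned for Cybc1 (-0.083 to 0.035 with a library left out, as for the next genes), Prkca (-0.36 to 0.0044), Rela (-0.019 to 0.16), Cnr2 (-0.042 to 0.00051), Stat3 (0.096 with the length correction, and -0.032 to 0.0071) and Papd4 (0.010 with the length correction, and -0.029 to 0.0032 with a library left out). The turns of Cybb, Stat3 and Papd4 with the length correction stand beside medians of tested genes of 0.023 to 0.052 by length bin. Arhgap15 was at 0.35 without control replicate 2 and at 0.15 without control replicate 1. The markers Cd5l and Cdh5 both passed the adjusted threshold with library size only (-0.63 and -0.90), and Cd5l passed it with DESeq2 (-0.59). Without control replicate 2 they were at -0.80 and -0.92, and without EGCG replicate 2 at -0.73 and -1.03. They were at -0.33 and -0.80 without control replicate 1, and at -0.45 and -0.72 without EGCG replicate 1. Fits with a library left out hold 1 library in a group, so for Cd5l and Cdh5 only their log2 fold changes are given, whether or not the threshold was passed.
Control means in CPM per kb with the longest transcript as the length were 267 for Cybb, 1236 for Cyba, 499.7 for Ncf1, 560.6 for Ncf4, 71.7 for Rac1 and 22.8 for Hvcn1, and with library size only 220.5 for Cybb, 895 for Cyba, 398 for Ncf1 and 411 for Ncf4. With exonic bases not shared with another gene, a length chosen after the data were seen, they were 442 for Ncf1, 136 for Rac1 and 32.2 for Hvcn1. The nearest genes were the same 3 for Cybb and for Ncf1 at a prior count of 0.5.
The standard errors of the members ran from 0.075 to 0.083 on the log2 scale, with a spread estimated with the help of all tested genes, and counting error was at most 3.11% of a count (Hvcn1).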
